A study of Homo sapiens with 11 samples.

Results

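Immune checkpoint ligands are surface or secreted proteins through which a cell engages restraining receptors on T cells, NK cells and macrophages. The set described here was defined by gene name and not by any measured value, though it was chosen with earlier results of these data known. It holds 10 of the 58721 gene IDs in the count table: CD274, PDCD1LG2, CD276, VTCN1, HHLA2, PVR, NECTIN2, TNFRSF14, LGALS9 and CD47. Of these, 9 passed the filter on low counts and were tested with the 23693 genes that did, and HHLA2 did not. All 11 libraries are poly(A) RNA of wild-type A375, an established human melanoma line with an activating BRAF mutation, bought from ATCC and grown in DMEM with fetal bovine serum. Withdrawn cells (n = 5) were taken 4 weeks after the MEK inhibitor trametinib had been removed, and each carries the number of the persister culture it came from by name. Persister cells (n = 5) had lived through 8 weeks in 2 nM trametinib. Parental cells (n = 1) received no drug. The model is 1 cell line in culture, and the labels name no immune cells in it.

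PD-L1 (CD274) and PD-L2 (PDCD1LG2) bind PD-1 on T cells and dampen their activation, and interferon-gamma raises both through JAK kinases and the transcription factor IRF1. PVR and NECTIN2 share receptors on T and NK cells, the inhibitory TIGIT and the activating DNAM-1. CD47 binds SIRP-alpha on macrophages and holds back phagocytosis. Melanoma cells are known to carry several of these ligands, with CD276 and PVR common among them.

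Total counts ranged from 56513920 to 82984566 per library. Differences between groups were tested with edgeR's quasi-likelihood test with Benjamini-Hochberg adjustment over all genes tested, at a threshold of 0.05, and are given in CPM (read counts scaled to an equal library size) and as log2 fold changes ± SE. Levels of different genes are set against each other in TPM, which divides by the joint length of all annotated exons of a gene, called transcript length here. Exons that these cells do not use would lower a gene's TPM, which was not tested. A log2 ratio of CPM within a pair of genes is compared only between groups, where transcript length cancels. The labels do not state that the persister cultures arose from separate selections, and p-values thus reflect the spread among these libraries alone, which may be technical. With 1 library, the parental group gives no spread and was assumed to vary as the other groups do. Persister 1 and persister 5 stood apart from the other persister libraries: their mean log2 CPM over 24 S phase genes was 5.03 and 4.03, against 5.84 to 6.26 in persister 2 to 4, 6.06 to 6.18 in withdrawn cells and 6.49 in parental cells. Mitochondrial genes took 8.88% and 9.28% of their counts, against 4.51% to 6.72% in persister 2 to 4. Results that turn on these libraries are given with and without them.

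The promoter of CD274 was the one among the 8 tested members in the promoter table that held interferon-type sequence matches, and it is printed beside those of NECTIN2 and PVR, a receptor-sharing pair whose transcripts differed in their response. The sequences are the 250 bases before the RefSeq start on GRCh38.p14, all on the + strand, at chr9:5450292-5450541 for CD274, chr19:44846047-44846296 for NECTIN2 and chr19:44643660-44643909 for PVR. Capitals mark motif matches.
CD274: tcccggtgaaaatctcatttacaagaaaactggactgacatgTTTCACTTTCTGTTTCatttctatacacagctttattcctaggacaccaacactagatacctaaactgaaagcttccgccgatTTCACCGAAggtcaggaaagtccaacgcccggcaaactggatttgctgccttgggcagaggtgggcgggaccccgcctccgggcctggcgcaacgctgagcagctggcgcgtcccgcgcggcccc
NECTIN2: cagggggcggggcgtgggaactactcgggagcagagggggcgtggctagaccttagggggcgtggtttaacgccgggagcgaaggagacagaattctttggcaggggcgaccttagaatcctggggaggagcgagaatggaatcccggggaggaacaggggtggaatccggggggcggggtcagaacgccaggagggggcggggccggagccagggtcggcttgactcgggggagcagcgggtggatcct
PVR: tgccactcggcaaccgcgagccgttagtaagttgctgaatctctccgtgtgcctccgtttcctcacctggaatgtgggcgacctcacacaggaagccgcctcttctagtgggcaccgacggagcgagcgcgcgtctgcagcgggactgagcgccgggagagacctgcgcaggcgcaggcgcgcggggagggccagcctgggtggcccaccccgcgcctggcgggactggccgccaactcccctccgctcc

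Both strands were searched for 5 motifs: the IRF-type repeat (GAAA, any 2 bases, GAAA), the GAS motif TTCNNNGAA, the AP-1 motif TGANTCA, the ETS core CCGGAAGT and the E-box CACGTG. CD274 held 2 IRF-type repeats on the reverse strand that overlap each other, from -208 to -199 and from -202 to -193 counted back from the start, and 1 GAS motif from -125 to -117. Among 35116 promoters of the same length, 3.02% held the IRF-type repeat and 6.57% the GAS motif. The AP-1 motif occurred in 6.57% of promoters, the ETS core in 3.42% and the E-box in 6.34%. Of the 10 members, 9 matched the promoter table by symbol, and PDCD1LG2 did not. HHLA2 held 1 AP-1 motif and the other 7 members held none of the 5 in their windows.

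In persister cells, compared with parental cells, 4 of the 10 ligand transcripts rose and 0 fell: PDCD1LG2, NECTIN2, TNFRSF14 and CD276. Of all genes tested, 31.2% were called in this comparison, 16.1% higher and 15.1% lower. After withdrawal 6 of the 10 fell relative to persister cells and 0 rose: PDCD1LG2, CD274, CD276, NECTIN2, TNFRSF14 and LGALS9, where 52.5% of all genes were called, 24.5% higher and 28% lower. Between withdrawn and parental cells edgeR called 0 of the 10, against 0.431% of all genes (0.312% higher and 0.118% lower), and 3 members had an unadjusted p under 0.05. DESeq2 called 1 member in this last comparison and limma-voom 0, beside 5% and 0.452% of all genes. The median log2 fold change of the 9 tested members was -1.26 for withdrawn over persister cells and 1.94 for persister over parental cells, beside -0.03 and 0.09 over all genes. For withdrawn over parental cells it was 0.65, beside 0.05 over all genes, and 0.23 with LGALS9, which had 0 parental counts, set at its lower bound. In bulk RNA, fewer cells carrying a transcript and less of it per cell cannot be told apart.

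**Figure D1:**
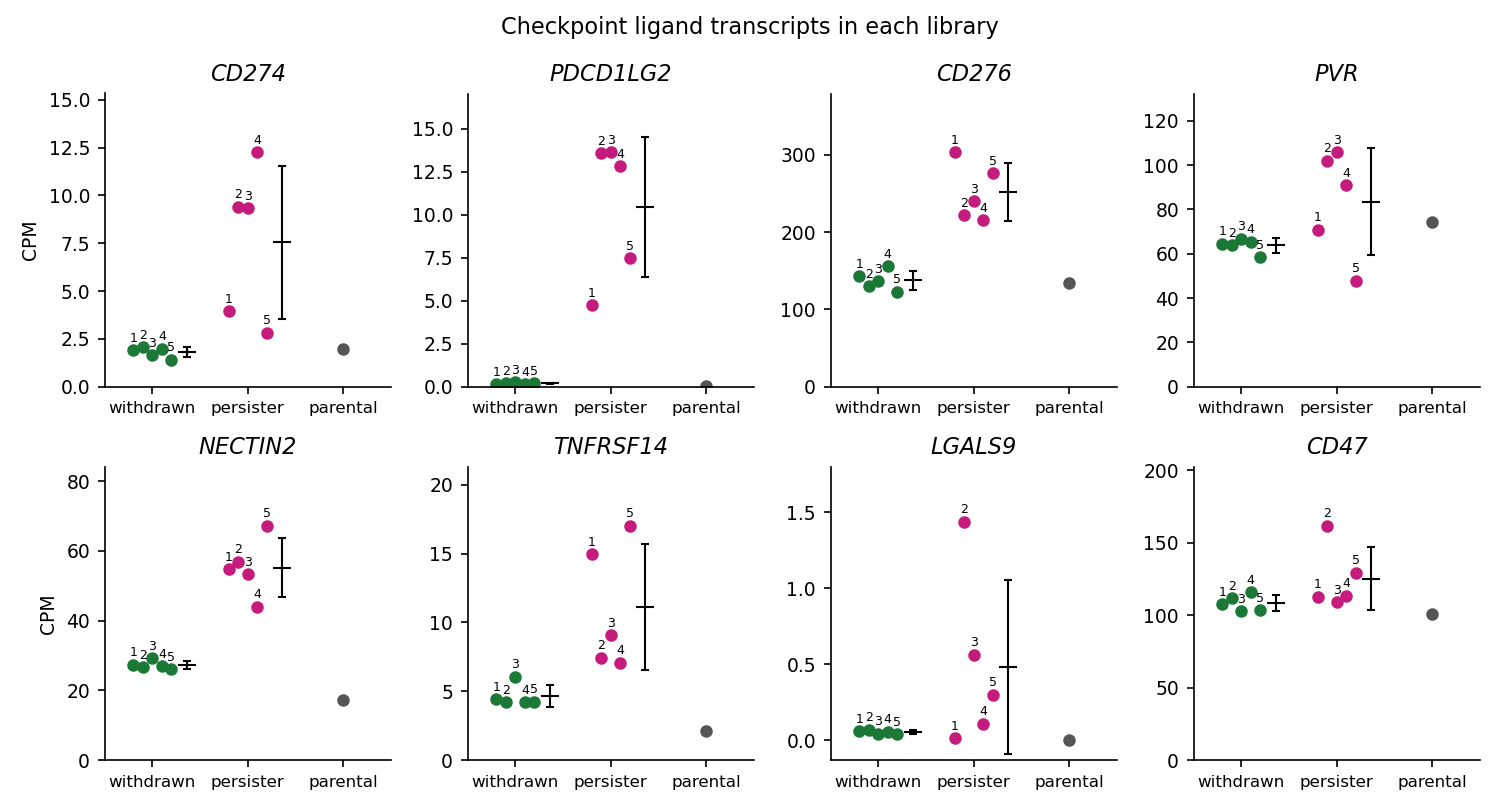
CPM of 8 ligand transcripts in each library, by group (withdrawn, persister, parental). Points are libraries with culture numbers, and the bar beside each group is the mean with SD (n = 5; the 1 parental library has none). Persister points lie above all withdrawn points for CD274, PDCD1LG2, CD276, NECTIN2 and TNFRSF14, and overlap them for PVR, LGALS9 and CD47.

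PDCD1LG2 showed the largest difference between withdrawn and persister cells among the 9 tested ligands. It stood at 0.163, 0.193, 0.267, 0.142 and 0.193 CPM in withdrawn 1 to 5, at 4.75, 13.6, 13.6, 12.8 and 7.48 CPM in persister 1 to 5 and at 0.0306 CPM in parental cells. Every persister library was above every withdrawn library, and parental cells were below both, with 2 counts. Withdrawn cells averaged 0.192 ± 0.0472 CPM and persister cells 10.5 ± 4.10 CPM (SD, n = 5 each), a 54.1-fold fall (log2 fold change -5.76 ± 0.36, adjusted p = 2.75e-07). Pooled over the group and set to library size, the 3546 persister counts gave a ratio of 340 to the 2 parental counts (95% counting interval 94.2 to 2812), and the fitted log2 difference was 8.33 ± 0.93 (adjusted p = 9.2e-05). The 64 withdrawn counts gave a ratio of 6.25 to parental (interval 1.66 to 52.7), which missed the threshold with all libraries (adjusted p = 0.220). Without persister 1 and 5 it passed (log2 fold change 2.57, adjusted p = 0.0173), which was the lowest adjusted p among the alternatives, where the highest was 0.659. These intervals cover counting error only. Over all alternatives the adjusted p of persister against parental cells ranged from 8.04e-12 to 0.0130. The gene lies on chromosome 9 (5510570 to 5571254, + strand, GRCh38).

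CD274, which encodes PD-L1, lies next to it (5450503 to 5470566, + strand). It stood at 1.90, 2.05, 1.63, 1.995 and 1.42 CPM in withdrawn 1 to 5, at 3.93, 9.41, 9.34, 12.3 and 2.83 CPM in persister 1 to 5 and at 1.97 CPM in parental cells. All persister libraries were above all withdrawn libraries and above parental cells, and persister 1 and 5 were the lowest of their group. Withdrawn cells averaged 1.80 ± 0.267 CPM and persister cells 7.55 ± 4.01 CPM, a 4.201-fold fall (log2 fold change -2.07 ± 0.37, adjusted p = 6.07e-04). Against parental cells the persister difference was 1.94 ± 0.71 on the log2 scale (95% interval 0.39 to 3.48) and missed the threshold (adjusted p = 0.0567). It passed with DESeq2 (adjusted p = 0.00792), without persister 1 (0.0334), without persister 5 (0.00984) and without both (1.65e-04, log2 difference 2.39), and the adjusted p ranged up to 0.182 over the alternatives. Withdrawn and parental cells differed by -0.14 (adjusted p = 0.949).

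Between these ligands of PD-1 the balance turned over. Per transcript length, PDCD1LG2 stood at 0.124 to 0.284 of the CD274 level in withdrawn libraries, 1.82 to 4.60 of it in persister libraries and 0.0269 of it in parental cells (ratios of TPM). PDCD1LG2 was thus above CD274 in 5 of 5 persister libraries and below it in the other 6. The log2 ratio of their CPM averaged -3.06 ± 0.447 in withdrawn and 0.561 ± 0.507 in persister cells, a difference of -3.62 (exact two-sided permutation test, p = 0.00794, unchanged by adjustment over the 2 pairs tested). That p is the smallest 5 libraries against 5 can give. Paired by culture, an exact sign-flip test gave 0.0625, the smallest p that 5 pairs allow. Without persister 1 and 5 the difference was -3.44 (permutation test, adjusted p = 0.0179, the smallest that the libraries left can give).

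**Figure D2:**
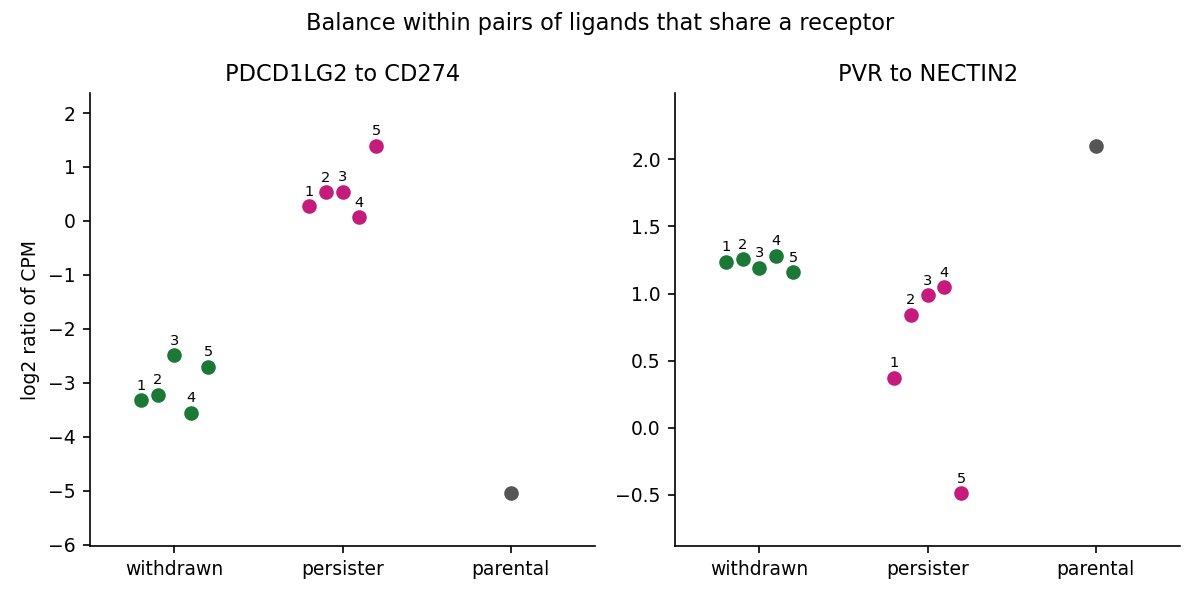
Log2 ratio of CPM within each pair of ligands that share a receptor, for withdrawn, persister and parental libraries; points are libraries with culture numbers. For PDCD1LG2 to CD274 the persister libraries lie above all others, and for PVR to NECTIN2 the persister libraries lie below the withdrawn libraries, with persister 5 the lowest.

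Of the B7 family members outside the PD-1 ligands, CD276 was abundant and VTCN1 and HHLA2 were barely read. CD276 (B7-H3, chromosome 15, 73683966 to 73714518, + strand) restrains T cells through a receptor that is not settled. It stood at 143, 130, 136, 156 and 123 CPM in withdrawn 1 to 5, at 303, 221, 240.2, 215 and 276 CPM in persister 1 to 5 and at 134 CPM in parental cells. All persister libraries were above the rest, with persister 1 and 5 the highest, and parental cells lay within the withdrawn range. Withdrawn cells averaged 138 ± 12.6 CPM and persister cells 251 ± 37.6 CPM (log2 fold change -0.87 ± 0.11, adjusted p = 5.37e-05). Persister cells were 1.88-fold above parental cells (log2 fold change 0.91 ± 0.20, adjusted p = 0.00634). That call was lost when only the 6 persister and parental libraries were fitted (adjusted p = 0.0615, and from 2.81e-04 to 0.0615 over the alternatives).

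VTCN1 (B7-H4, chromosome 1, 117143587 to 117210960, - strand), another inhibitory B7 protein, had 1, 0, 4, 6 and 1 counts in withdrawn 1 to 5, 15, 1, 12, 5 and 4 counts in persister 1 to 5 and 1 count in parental cells. Withdrawn libraries overlapped the persister libraries, and no comparison passed (adjusted p = 0.131 for withdrawn against persister and 0.279 for persister against parental cells). In CPM all persister libraries lay above the parental library, the lowest at 0.0184 against 0.0153 CPM, with 1 count in each. The 37 pooled persister counts gave a ratio of 7.10 to the 1 parental count (95% counting interval 1.198 to 288). HHLA2 (B7-H7, chromosome 3, 108296490 to 108378285, + strand) had 1 count each in withdrawn 1 and 4 and in persister 3 and 4, and 0 in the other 7 libraries. At these depths a count of 0 allows up to 3 counts, which is 0.0459 CPM in the parental library.

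NECTIN2 and PVR, which share TIGIT and DNAM-1, differed in their response. NECTIN2 (CD112, chromosome 19, 44846175 to 44889228, + strand) stood at 27.4, 26.7, 29.2, 26.9 and 26.1 CPM in withdrawn 1 to 5, at 54.7, 56.9, 53.4, 44.0 and 67.3 CPM in persister 1 to 5 and at 17.3 CPM in parental cells. The groups were fully apart, in the order persister, withdrawn, parental. Withdrawn cells averaged 27.3 ± 1.17 CPM and persister cells 55.3 ± 8.33 CPM, a 2.03-fold fall (log2 fold change -1.02 ± 0.10, adjusted p = 1.05e-05). Persister cells were 3.19-fold above parental cells (log2 fold change 1.67 ± 0.20, adjusted p = 1.61e-04). The withdrawn level was 1.57-fold the parental one (log2 difference 0.65 ± 0.19), which did not pass in the fit of all libraries (adjusted p = 0.136, unadjusted 0.00474). It passed with DESeq2 (adjusted p = 0.0468), without persister 5 (0.0475) and without persister 1 and 5 (0.0208), and ranged from 2.12e-04 to 0.234 over the alternatives.

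PVR (CD155, chromosome 19, 44643798 to 44663583, + strand), also a ligand of CD96, stood at 64.5, 63.9, 66.7, 65.5 and 58.3 CPM in withdrawn 1 to 5, at 70.8, 102, 106, 91.0 and 47.9 CPM in persister 1 to 5 and at 74.5 CPM in parental cells. Persister 2, 3 and 4 were above every other library, and persister 5 was below every other library, so that the groups overlapped. Withdrawn cells averaged 63.8 ± 3.25 CPM and persister cells 83.5 ± 24.1 CPM, and the log2 difference of -0.39 did not pass (95% interval -0.78 to 0.01, adjusted p = 0.0907). Persister against parental cells gave 0.16 (interval -0.53 to 0.86, adjusted p = 0.717). Without persister 1 and 5 both comparisons passed, at -0.65 for withdrawn against persister (adjusted p = 2.61e-05) and 0.42 for persister against parental cells (0.0153). Leaving out persister 5 alone gave -0.54 for withdrawn against persister cells (adjusted p = 0.00174). PVR shares 121 exon bases, 3.44% of its exon length, with CEACAM19 on the same strand, which had 64 to 123 counts in withdrawn, 77 to 246 in persister and 46 in parental libraries.

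Per length, PVR stood at 2.38 to 2.59 times the NECTIN2 level in withdrawn libraries, 0.758 to 2.20 times in persister libraries and 4.58 times in parental cells (ratios of TPM). The log2 ratio of their CPM averaged 1.22 ± 0.0493 in withdrawn and 0.552 ± 0.640 in persister cells, a difference of 0.67 (exact two-sided permutation test, adjusted p = 0.00794), and was 2.10 in parental cells. Much of that size rested on the libraries with low S phase levels: it was 0.41 without persister 5 and 0.27 without persister 1 and 5 (adjusted p = 0.0179). That p is the smallest the permutation test can give with the libraries left. The paired sign-flip test again gave 0.0625, the smallest p it allows.

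TNFRSF14 (HVEM, chromosome 1, 2555639 to 2565382, + strand) engages the inhibitory receptor BTLA and can itself receive signals from LIGHT. It stood at 4.43, 4.203, 6.07, 4.23 and 4.24 CPM in withdrawn 1 to 5, at 14.98, 7.45, 9.05, 7.08 and 17.0 CPM in persister 1 to 5 and at 2.11 CPM in parental cells. The 3 groups did not overlap, and persister 1 and 5 were the highest. Withdrawn cells averaged 4.63 ± 0.805 CPM and persister cells 11.1 ± 4.58 CPM (log2 fold change -1.26 ± 0.26, adjusted p = 0.00150). Persister cells were 5.26-fold above parental cells (log2 fold change 2.40 ± 0.53, adjusted p = 0.00578), a call lost in the fit of 6 libraries (adjusted p = 0.0516, and from 4.98e-06 to 0.0516 over the alternatives). The withdrawn level was 2.19-fold the parental one and did not pass (adjusted p = 0.293), though it did without persister 1 and 5 (0.0276, and from 0.00394 to 0.428 over the alternatives). TNFRSF14 shares 831 exon bases, 13.4% of its length, with its antisense gene TNFRSF14-AS1. Whether the counting used strand is not stated, and the antisense gene had 2 to 9 counts in withdrawn, 15 to 22 in persister and 2 in parental libraries.

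LGALS9 (galectin-9, chromosome 17, 27629798 to 27649560, + strand), a ligand of TIM-3, was read little and unevenly. It had 4, 4, 3, 4 and 3 counts in withdrawn 1 to 5, 1, 78, 37, 9 and 22 counts in persister 1 to 5 and 0 counts in parental cells. Persister 2 to 5 were above the withdrawn libraries and persister 1 was below them. It passed for withdrawn against persister cells (log2 fold change -3.10 ± 0.88, adjusted p = 0.0117) but not with limma-voom (adjusted p = 0.175) or limma-voom with quality weights by group (adjusted p = 0.0589). Without persister 2 the log2 fold change was -2.15 (adjusted p = 0.0310). Against a floor of 3 counts in the parental library, persister cells were at least 9.41-fold higher, and at least 5.25-fold higher without persister 2, which left 69 of their 147 counts. That comparison missed the threshold (adjusted p = 0.0656) and passed with DESeq2 (0.0105) and without persister 1 (0.0194), 2 (0.0485) or 4 (0.0493), or without both persister 1 and 5 (0.0126). Among the alternatives the adjusted p lay between 0.0105 and 0.277. The value is uncertain, because the near-identical copies LGALS9B and LGALS9C can share its reads: each of them had at most 9 counts in a persister library and 0 in the others.

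CD47 (chromosome 3, 108043094 to 108091862, - strand) stood at 108, 112, 103, 116 and 104 CPM in withdrawn 1 to 5, at 113, 162, 109, 114 and 129 CPM in persister 1 to 5 and at 101 CPM in parental cells. Persister 2 stood above the others, and the withdrawn and persister groups overlapped. Withdrawn cells averaged 108 ± 5.41 CPM and persister cells 125 ± 21.9 CPM. Neither the withdrawn to persister difference (log2 difference -0.21, 95% interval -0.45 to 0.03, adjusted p = 0.127) nor the persister to parental difference (0.32, interval -0.11 to 0.74, adjusted p = 0.229) passed. These intervals leave out changes of CD47 as large as that of NECTIN2 in the same comparisons.

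**Figure D3:**
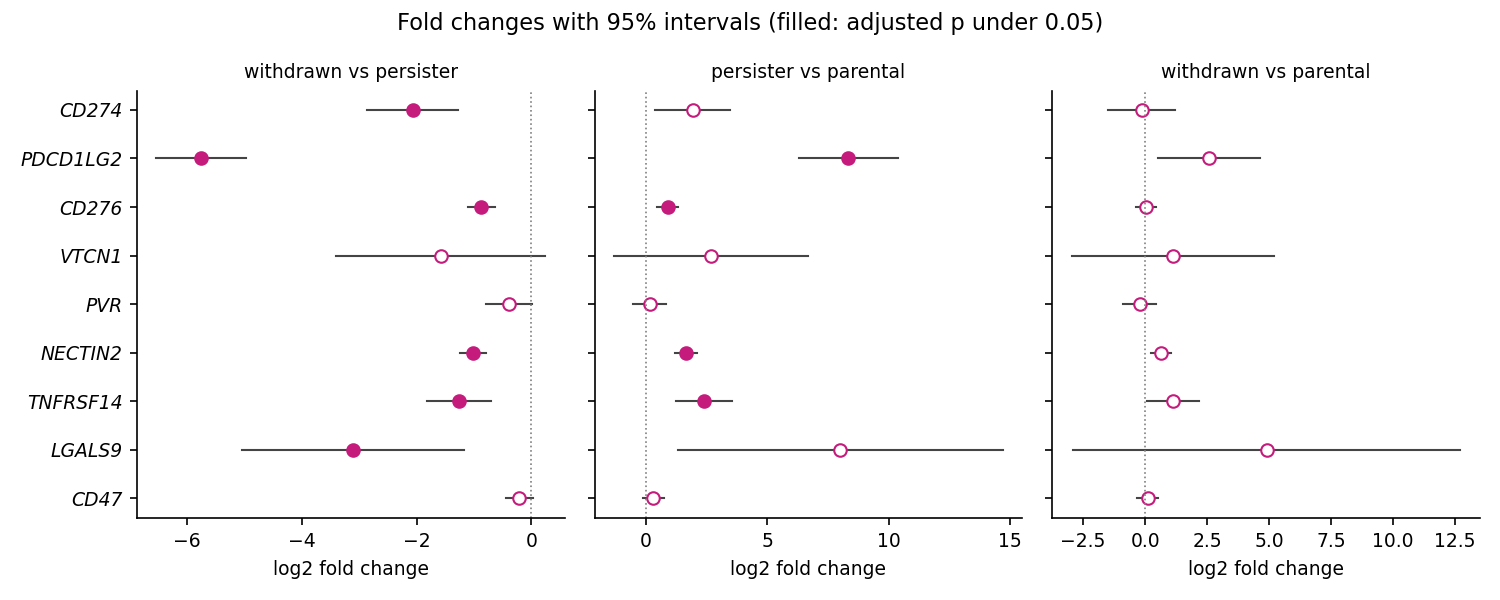
Log2 fold changes of the 9 tested ligand transcripts from edgeR, with 95% intervals, for withdrawn against persister, persister against parental and withdrawn against parental cells. Filled points passed an adjusted p of 0.05. All points lie below 0 in the first panel and above 0 in the second, and no point is filled in the third.

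Taken culture by culture, CD274, PDCD1LG2, CD276, NECTIN2 and TNFRSF14 were lower in the withdrawn sample than in the persister sample of the same number in 5 of 5 cultures. The log2 differences ranged from -2.60 to -0.98 for CD274, from -6.22 to -4.63 for PDCD1LG2, from -1.17 to -0.46 for CD276, from -1.37 to -0.71 for NECTIN2 and from -1.999 to -0.58 for TNFRSF14. PVR, CD47, LGALS9 and VTCN1 were lower in 4 of 5 cultures. How many of all genes were lower in as many cultures was not counted. All 5 persister libraries were above the parental library for 8 of the 10 members, beside 32.7% of all genes tested, and below it for 0 members, beside 30.9%. For VTCN1 and LGALS9 this rests on as little as 1 count. All 5 withdrawn libraries were below all persister libraries for 5 members, beside 20.3% of all genes. They were above the parental library for 5 members (PDCD1LG2, NECTIN2, TNFRSF14, LGALS9 and CD47), beside 33% of all genes, and below it for PVR, beside 30.8%.

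The persister cultures did not vary in the same way for each ligand. In persister 1 and 5, with low S phase levels, CD274 stood at 2.83 to 3.93 CPM, against 9.34 to 12.3 CPM in persister 2 to 4. PDCD1LG2 stood at 4.75 to 7.48 CPM there, against 12.8 to 13.6 CPM, and PVR at 47.9 to 70.8 CPM, against 91.0 to 106 CPM. CD276 and TNFRSF14 ran the other way, at 276 to 303 CPM against 215 to 240.2 CPM and at 14.98 to 17.0 CPM against 7.08 to 9.05 CPM. NECTIN2 and CD47 overlapped between these libraries. The groupings are of single libraries, and what the S phase and mitochondrial levels contribute was not tested.

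Per transcript length, CD276 was the most abundant ligand in every group, at 86.8 ± 7.68 TPM in withdrawn, 135 ± 9.81 TPM in persister and 92.2 TPM in parental cells. In persister cells PVR (71.9 ± 23.7 TPM), CD47 (45.95 ± 10.2 TPM) and NECTIN2 (44.1 ± 6.39 TPM) followed, and their ranges overlapped. PDCD1LG2 (13.6 ± 5.91 TPM), CD274 (5.68 ± 3.31 TPM) and TNFRSF14 (5.26 ± 1.90 TPM) came next, with neighbouring ranges that again overlapped. In withdrawn cells the order was CD276, PVR (63.4 ± 2.96 TPM), CD47 (46.1 ± 1.90 TPM), NECTIN2 (25.4 ± 1.18 TPM), TNFRSF14 (2.61 ± 0.468 TPM), CD274 (1.53 ± 0.208 TPM) and PDCD1LG2 (0.284 ± 0.0714 TPM), with no overlap between these neighbours. LGALS9 and VTCN1 stayed under 1 TPM in every library. The 10 transcripts together summed to 212 to 242 TPM in withdrawn, 286 to 360.2 TPM in persister and 240.3 TPM in parental cells. TPM lacks the scaling between libraries used for CPM, so differences between groups can depend on the unit. PVR was lower in persister than in parental cells by TPM (71.9 against 80.7) and higher by CPM (83.5 against 74.5). NECTIN2 took 10.4% to 11.9% of the summed TPM in withdrawn, 11.8% to 17.3% in persister and 7.34% in parental cells, and PVR took 26.9% to 29.02%, 13.1% to 27.2% and 33.6% in the same order.

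**Figure D4:**
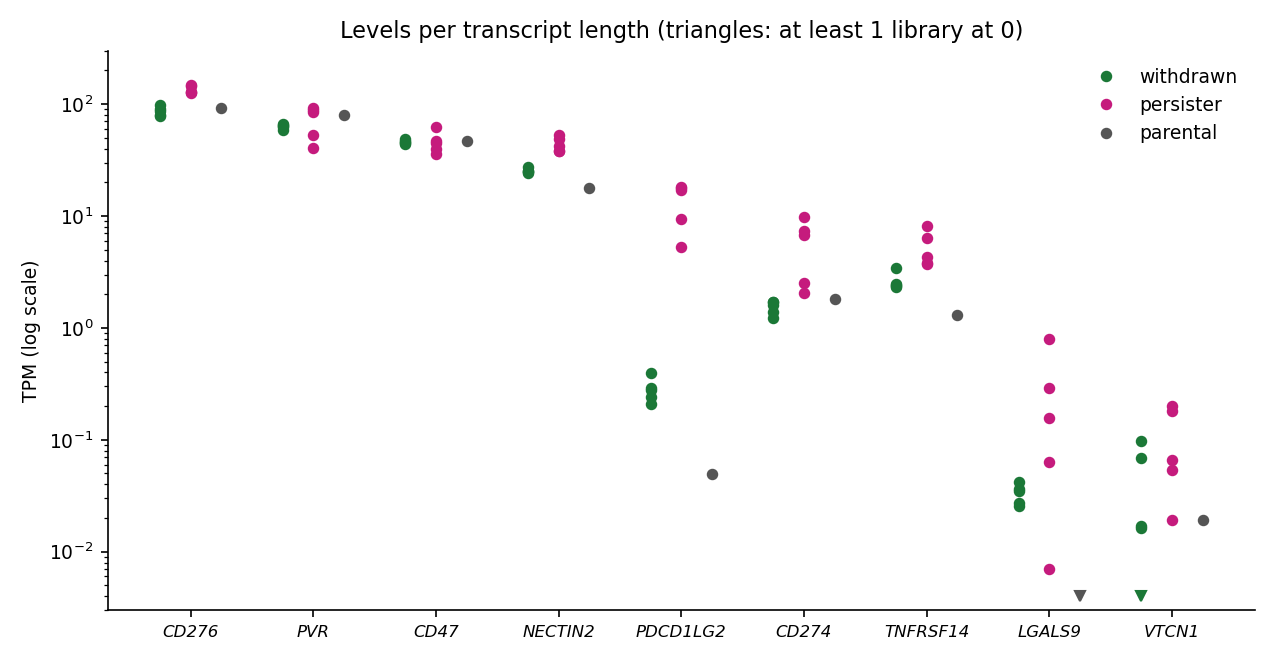
TPM of 9 ligand transcripts on a log scale, 1 point per library, with withdrawn left of persister and parental at the right of each gene; triangles mark groups with at least 1 library at 0. CD276, PVR, CD47 and NECTIN2 lie above 10 TPM in all libraries, and PDCD1LG2 spans the widest range, with the parental library lowest.

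Genes known to regulate or accompany these ligands were read from 5 lists that hold 105 genes, none of them a member, of which 97 were tested. Of these, 28 rose and 9 fell in persister relative to parental cells, and 25 rose and 41 fell in withdrawn relative to persister cells. Of all genes tested, 16.1% rose and 15.1% fell in the first comparison, and 24.5% rose and 28% fell in the second. Some list counts lie near these shares, which also stand beside the counts of each list below. Between withdrawn and parental cells edgeR called 1 of the 97, higher, beside 0.431% of all genes. At an unadjusted p under 0.05, 19 were higher and 3 lower. DESeq2 called 10 higher and 1 lower, beside 5% of all genes (3.27% higher), and limma-voom 1, beside 0.452%. Without persister 1 and 5, edgeR called 9 higher and 2 lower there, beside 9.04% of all genes (5.38% higher).

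Among 24 regulators on the interferon-gamma and NF-kB route to CD274, 9 rose and 9 fell after withdrawal (all genes: 24.5% and 28%). In persister relative to parental cells 5 rose and 2 fell (all genes: 16.1% and 15.1%). The list's median log2 fold changes were -0.03 and 0.21, beside -0.03 and 0.09 over all genes. IRF1, the transcription factor that binds IRF-type repeats, averaged 5.17 ± 0.442 CPM in withdrawn, 19.4 ± 5.79 CPM in persister and 5.42 CPM in parental cells (adjusted p = 8.84e-06 for the withdrawn to persister and 0.00327 for the persister to parental difference). JUN, an AP-1 subunit, averaged 12.0 ± 3.46, 92.6 ± 26.1 and 16.7 CPM in the same order (adjusted p = 5.22e-06 and 0.00428). NFKB1, an NF-kB subunit, and IFNGR2, a chain of the interferon-gamma receptor, ran the other way. NFKB1 averaged 91.97 ± 3.26 CPM in withdrawn, 50.9 ± 2.93 CPM in persister and 92.7 CPM in parental cells, and IFNGR2 averaged 79.5 ± 4.44, 37.1 ± 2.54 and 64.1 CPM. JAK2 averaged 13.6 ± 1.30, 12.9 ± 2.10 and 12.6 CPM and passed in neither comparison (adjusted p = 0.638 and 0.929). STAT5A was the gene called between withdrawn and parental cells, 1.88-fold higher at 38.2 ± 1.71 against 20.3 CPM (adjusted p = 0.0271). Without persister 1 and 5, 8 regulators rose and 4 fell in persister relative to parental cells. That fit called 38.9% of all genes there, 20.1% higher.

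Proteins that modify or stabilise PD-L1 and CD47 are encoded by 24 listed genes, 23 of them tested. Of these, 6 rose and 8 fell after withdrawal (all genes: 24.5% and 28%). Persister cells had 4 higher and 3 lower than parental cells (all genes: 16.1% and 15.1%). CMTM6, which keeps PD-L1 from lysosomal breakdown, averaged 204 ± 5.52 CPM in withdrawn, 150 ± 4.05 CPM in persister and 168 CPM in parental cells. It rose 1.36-fold after withdrawal (adjusted p = 1.12e-04) and did not pass between persister and parental cells (adjusted p = 0.254). QPCTL, the enzyme that modifies CD47 for binding to SIRP-alpha, averaged 25.1 ± 1.37, 18.2 ± 1.81 and 16.3 CPM and rose 1.38-fold after withdrawal (adjusted p = 0.00107). STUB1, a ubiquitin ligase of PD-L1, averaged 22.8 ± 1.78, 42.6 ± 5.21 and 21.2 CPM (adjusted p = 1.88e-05 and 0.00207). ZDHHC9, which palmitoylates PD-L1, averaged 41.5 ± 0.843, 64.6 ± 7.45 and 33.9 CPM (adjusted p = 8.76e-05 and 0.00150). ADAM10, a protease that can shed PD-L1, averaged 299.8 ± 10.2, 163 ± 25.8 and 359 CPM (adjusted p = 3.34e-05 and 5.21e-04), and GSK3B, a kinase that marks PD-L1 for breakdown, 227 ± 19.8, 117 ± 11.6 and 299.6 CPM (adjusted p = 7.63e-06 and 6.7e-05).

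Ligands of activating receptors were also measured. Of 15 costimulatory and adhesion ligands, 11 were tested, of which 1 rose and 6 fell after withdrawal (all genes: 24.5% and 28%). Relative to parental cells, 5 rose and 1 fell in persister cells (all genes: 16.1% and 15.1%). CD70, the ligand of CD27, averaged 50.9 ± 3.42 CPM in withdrawn, 136 ± 21.7 CPM in persister and 31.2 CPM in parental cells, and TNFSF9 (4-1BB ligand) averaged 9.24 ± 1.29, 40.97 ± 12.5 and 9.42 CPM. CD58, the ligand of CD2, was the one called the other way, at 27.8 ± 2.55, 19.5 ± 3.08 and 28.9 CPM (adjusted p = 0.00284 and 0.0402). CD99 rose 5.86-fold in persister over parental cells (adjusted p = 0.00799), and its reads can be split with its copy on the other sex chromosome. Of 14 ligands of activating NK receptors, 13 were tested. By edgeR 0 rose and 6 fell after withdrawal (all genes: 24.5% and 28%). By limma-voom and DESeq2 0 rose too, and 0 rose at an unadjusted p under 0.05. Relative to parental cells, 4 rose and 1 fell in persister cells (all genes: 16.1% and 15.1%). MICA, a ligand of NKG2D, averaged 10.97 ± 0.398, 21.7 ± 1.76 and 11.0 CPM (adjusted p = 3.49e-06 and 0.00101), and CLEC2B 13.0 ± 2.38, 31.6 ± 3.69 and 10.3 CPM. NCR3LG1 (B7-H6), a ligand of NKp30, was 1.91-fold lower in persister than in parental cells (adjusted p = 0.0224). Without persister 1 and 5, 9 of these NK ligands fell and 0 rose after withdrawal (54.8% of all genes called, 26.1% higher). In that fit 6 rose and 1 fell in persister relative to parental cells (38.9% of all genes called, 20.1% higher).

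Of 29 other inhibitory ligands and enzymes, 26 were tested, of which 9 rose and 12 fell after withdrawal (all genes: 24.5% and 28%). Relative to parental cells, 10 rose and 2 fell in persister cells (all genes: 16.1% and 15.1%). NECTIN4, another ligand of TIGIT, averaged 0.547 ± 0.233 CPM in withdrawn, 9.38 ± 5.13 CPM in persister and 0.0765 CPM in parental cells (adjusted p = 2.67e-05 and 0.00167). CD24, a ligand of Siglec-10 on macrophages, averaged 0.475 ± 0.0799, 28.5 ± 14.1 and 0.826 CPM (adjusted p = 9.15e-07 and 0.00103). CD200, which restrains myeloid cells through CD200R, ran the other way, at 11.3 ± 3.66, 0.358 ± 0.185 and 3.96 CPM (adjusted p = 2.47e-06 and 6.23e-04). IGSF11, a ligand of VISTA, rose 3.12-fold after withdrawal (adjusted p = 0.00126).

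The labels name no immune cells in these cultures. The 16 leukocyte markers summed to 5.19 to 6.20 CPM in withdrawn, 1.49 to 2.54 CPM in persister and 8.00 CPM in parental cells, with CD2 and TYROBP among those at 0 in every library. LYZ, which encodes lysozyme and was singled out after its values were seen, made up most of that sum in withdrawn and parental cells only. LYZ stood at 4.09 ± 0.630 CPM in withdrawn cells, 0.169 ± 0.104 CPM in persister cells (SD, n = 5 each) and 6.79 CPM in the parental library. In persister cells other markers made up most of the sum. LYZ was 24.2-fold higher in withdrawn than in persister cells (adjusted p = 9.58e-07) and 40.2-fold lower in persister than in parental cells (adjusted p = 7.49e-06). Melanoma markers summed to 1889 to 1967 CPM in withdrawn, 690 to 1250 CPM in persister and 1527 CPM in parental cells. Single markers did not all follow that sum. Of 12 melanoma markers 11 were tested: 7 rose and 3 fell after withdrawal, and 4 rose and 5 fell in persister relative to parental cells. MLANA was among the 4 that rose. Most fibroblast markers moved with the ligands that rose. The 10 genes summed to 38.4 to 64.8 CPM in withdrawn, 186 to 3386 CPM (median 566) in persister and 19.7 CPM in parental cells. A single marker reached 263325 counts in 1 persister library. After withdrawal 8 of the 10 fell and 1 rose. In persister relative to parental cells 7 rose (by limma-voom 3) and 1 fell. Endothelial markers (8 genes) summed to 38.0 to 59.2, 7.00 to 40.4 and 48.8 CPM in the same order. Of the 7 tested, 5 rose and 2 fell after withdrawal, and 2 rose and 2 fell in persister relative to parental cells. The part of such marker genes in the ligand values was not tested. Of 15 receptors of the ligands, PDCD1 and KIR3DL3 had 0 counts in every library. CD96 and SIRPA, named after their values were seen, made up most of the receptor signal: CD96 averaged 106 CPM in withdrawn and 23.2 CPM in persister cells, and SIRPA 24.4 and 72.2 CPM.

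Among the 11 annotated protein-coding genes that start within 500 kb of the CD274 start, CD274 included, 8 were tested. Of these 8, which include CD274 and PDCD1LG2, 1 rose and 5 fell after withdrawal (24.5% and 28% of all genes tested). In persister relative to parental cells 4 rose and 1 fell (16.1% and 15.1% of all genes tested). PDCD1LG2 starts 60.1 kb downstream of CD274. MLANA, a melanocyte antigen whose start lies 440.3 kb downstream, was the gene nearest to PDCD1LG2 in size of change, with log2 fold changes of -4.61 after withdrawal (adjusted p = 1.63e-07) and 3.803 in persister over parental cells (adjusted p = 3.44e-04). PLGRKT and ERMP1 moved in the same directions by less, at -0.34 and 0.87 for PLGRKT and at -0.39 and 0.98 for ERMP1. RIC1, between PDCD1LG2 and ERMP1, ran the other way at 0.45 and -0.62. Around NECTIN2, of 34 such genes 23 were tested, of which 6 rose and 11 fell after withdrawal and 6 rose and 3 fell in persister relative to parental cells. The 23 include NECTIN2 and PVR, and the same shares of all genes stand beside them.

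**Figure D5:**
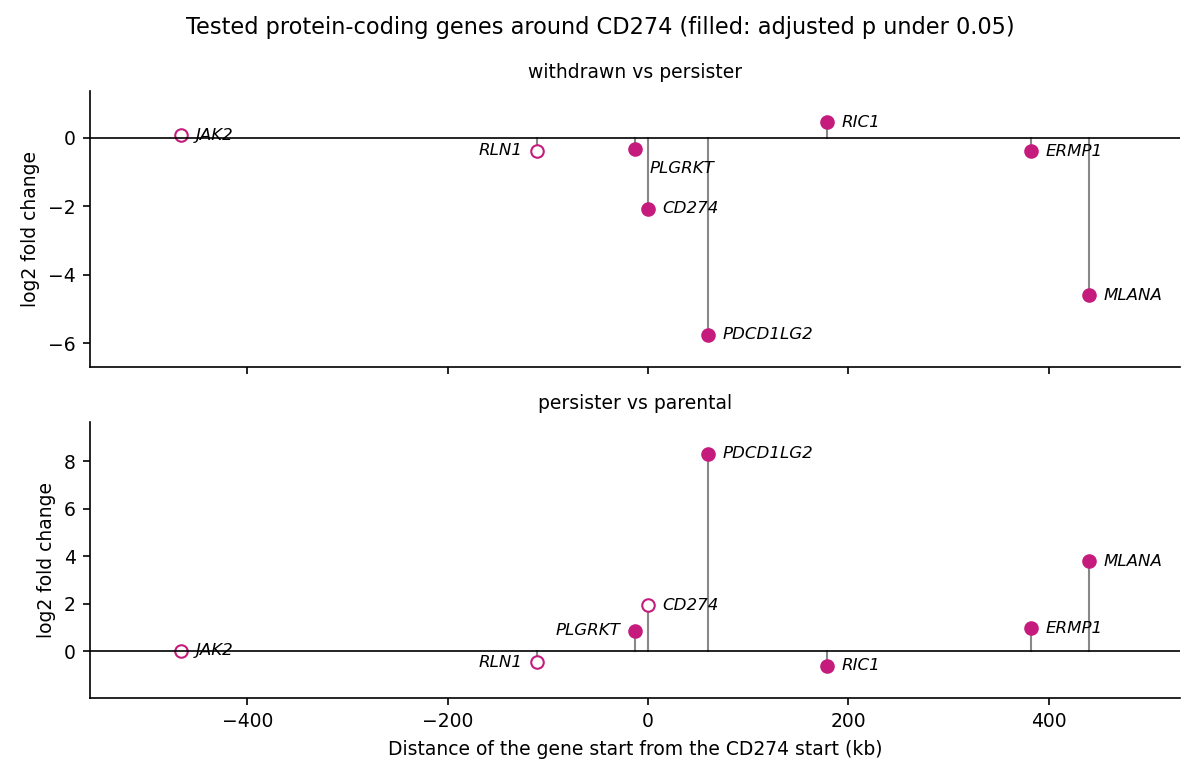
Log2 fold changes from edgeR of the 8 tested protein-coding genes around CD274, by the distance of their start from the CD274 start in kb, for withdrawn against persister cells (top) and persister against parental cells (bottom). Filled points passed an adjusted p of 0.05. PDCD1LG2 and MLANA have the largest changes, and RIC1 lies on the other side of 0.

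The genes most like each ligand across libraries differed between ligands. Likeness was Pearson's r of log2 CPM over the 11 libraries, which share the 3 groups, given as a description. The 3 nearest genes were ARPC2 (r = 0.986), FERMT2 and C9orf40 for CD274 and MYL12A (r = 0.993), HS3ST3B1 and GAS6 for PDCD1LG2. They were ACAA1 (r = 0.989), NDUFB2 and ORMDL2 for CD276, YIPF2 (r = 0.998), NFU1 and TAPBP for NECTIN2 and DHRS7B (r = 0.99), NME3 and IFI27L2 for TNFRSF14. PVR was most like PSMD14 (r = 0.995), H2AFV and PSMA6, CD47 most like LAP3 (r = 0.943), SLC9B2 and ADA, and LGALS9 most like TVP23B (r = 0.948), CHST14 and GPX8. VTCN1, at a few counts per library, was most like EBP (r = 0.895), CXorf40B and PSMD4.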

How the data were processed

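RNA of the 11 libraries was extracted with RNeasy columns and made into stranded poly(A) libraries with a KAPA kit, per the labels' protocols. The submitters' processing notes name bcl2fastq for demultiplexing, HISAT2 for alignment to hg38, and HTSeq for counting. Tool versions, the strand setting and the annotation behind the counting are not stated in the sources used here. The deposited values are raw read counts per gene, whole numbers that the authors did not normalize or pool. All 58721 gene IDs matched GENCODE release 29, which gave symbols, GRCh38 coordinates (1-based) and the union exon lengths used for TPM.

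Tests used edgeR 4.0.16 (R 4.3.3), with genes kept by filterByExpr on the groups (at least 10 counts and a total of 15), TMM scaling, a robust quasi-likelihood fit over the 11 libraries, and Benjamini-Hochberg adjustment over 23693 genes at 0.05. Log2 ratios used CPM with a prior count of 2. Total counts of 56513920 to 82984566 per library put the floor of 3 counts at 0.0365 to 0.0553 CPM. Alternatives were DESeq2 1.42.0, limma-voom (limma 3.58.1), RLE size factors, other filters, fits of only the groups compared, each replicate left out, persister 1 and 5 left out and the culture as a block. The last pairs withdrawn samples with the persister culture they are named after; deviations from group means correlated at 0.0484 to 0.0909 across genes and most strongly for the own number in 5 of 5 pairs. The list counts without persister 1 and 5 and the count ratios with a library left out were added after seeing the data. The tests were also tried on simulated data with known changes.

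The members and gene lists were chosen with earlier results of these data known. Named genes are all members, up to 3 genes called in each direction with the smallest adjusted p of each ligand, regulator and protein-handling list (mean log2 CPM from 0 up), with IRF1, JAK2, CMTM6 and QPCTL always considered, the called neighbours of CD274, and the 3 genes most like each tested member among genes whose mean log2 CPM reached 3. The called neighbours of NECTIN2 are given by count, and some genes the rule names are not reported here. Promoter sequences are from RefSeq (GRCh38.p14).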

Additional observations from a re-analysis of the deposited data

Results flagged for a closer look

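TNFRSF14 in withdrawn 3 stood at 6.07 CPM, apart from the other withdrawn libraries at 4.203 to 4.43 CPM; the gap to the nearest library was 0.877 of the range of the group. It was 1 of 18 groups of members' values examined for an outlying library, and chance flags about 1 in 20. The level in withdrawn 3 lay below every persister library and above the parental library, and the calls of TNFRSF14 were the same with and without it.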

How the results depend on the processing

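The number of ligand transcripts called between persister and parental cells was 4 with all libraries, 2 when only those 2 groups were fitted, 6 with DESeq2 (CD274 and LGALS9 added), 7 without persister 1 and 5, and 4 to 6 when each replicate was left out. Over all genes the same fits called 7391, 2569, 8497, 8965 and 6474 to 8849, which is 31.2%, 11.3%, 35.9%, 38.9% and 27.4% to 37.6% of the genes tested. For withdrawn against persister cells it was 6 (52.5% of all genes), and 6 to 7 with a replicate left out (46.6% to 54.9% of all genes). The replicate block gave 5 there, without LGALS9, which the block's filter did not keep, and changed no other member's call. Between withdrawn and parental cells it was 0 with all libraries, 1 with DESeq2 and 1 with limma-voom with quality weights by group. It was 3 when only those 2 groups were fitted, 3 without persister 1 and 5, and 0 to 1 with a replicate left out. In that order these fits called 0.431%, 5%, 4.92%, 30.5%, 9.04% and 0.0977% to 2.39% of all genes tested. The log2 ratio differences of -3.62 (PDCD1LG2 to CD274) and 0.67 (PVR to NECTIN2) had p = 0.0625 under the replicate block with an exact sign-flip test, the smallest that 5 pairs allow. With a replicate left out they ran from -3.76 to -3.41 and from 0.41 to 0.797. No member's difference that passed with all libraries changed sign under an alternative. Over the whole table, 7391 genes passed between persister and parental cells and 2569 when only those groups were fitted. Between withdrawn and parental cells 102 were called, 23 to 558 with a replicate left out, 1184 with DESeq2, 1166 with quality weights by group, 155 with at least 10 counts in 5 libraries, 2086 without persister 1 and 5 and 6593 when only those groups were fitted. The causes of these changes were not tested. LGALS9, VTCN1 and HHLA2 are limited by their few counts, and all comparisons with parental cells by its 1 library.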
